A study of Aptenodytes patagonicus with 3 samples.

Results

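Genes that move calcium across the sarcoplasmic reticulum were examined in the pectoralis, the main swimming muscle of the breast, of 3 artificially acclimated (AA) king penguin juveniles. The list held 10 genes, namely ATP2A1, ATP2A2, ATP2A3, RYR1, RYR2, RYR3, CASQ1, CASQ2, PLN and STIM1. All probe sets to which the platform's annotation gives one of these symbols and no other were taken, which were 15 of 36813 probe sets, for 7 of the 10 genes. ATP2A1, RYR1 and CASQ1, which encode the pump, the release channel and the calcium-binding protein typical of fast skeletal fibres in mammals, were named on 0 probe sets and were dropped. ATP2A3 and STIM1 had 3 probe sets each, ATP2A2, RYR2, RYR3 and CASQ2 had 2 each, and PLN had 1.

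All birds were captured as juveniles less than a year old before they had entered the sea, moulted in captivity and were then put into water at 8 °C for 10 immersions of 5 hours, 1 every 2 days. Bird 2 was a male, and birds 1 and 3 were females. Each bird gave 1 biopsy and 1 Affymetrix Chicken Genome array, so that penguin RNA was bound by chicken probes. The arrays of birds that were never immersed, or that had been to sea, were not analysed here, and no change with immersion was therefore computed. What could be compared was the level of each probe set between birds of 1 condition, and the only label that differed between them was sex.

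Contraction of a muscle fibre starts when the ryanodine receptors, the channels encoded by the RYR genes, let calcium out of the sarcoplasmic reticulum. It ends when calcium ATPases, encoded by the ATP2A genes and known as SERCA pumps, return calcium at the cost of ATP. Calsequestrin holds calcium inside the reticulum, phospholamban restrains the pump, and STIM1 senses how full the store is. Because pumping against a leak spends ATP and releases heat, this cycle has long been discussed as a source of heat in birds, which lack brown fat.

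The deposited values are log2 signals, on which a difference of 1 is a doubling. Over all probe sets and birds they ran from 6.46 to 15.27, and after the authors' normalization the medians of the arrays were 8.63 for the male and 8.62 for each female. How brightly a probe set reads is set partly by the fit between penguin transcript and chicken probe, so levels were compared between birds within a probe set and never between genes. No value for detection above background came with the signals. In whole muscle, fewer cells of a type and less RNA per cell cannot be told apart.

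Among the pumps, ATP2A2, which encodes SERCA2, the pump of slow-twitch and cardiac fibres, was read by 2 probe sets that ordered the birds in opposite ways. On the brighter one the signal was 10.35 in the male, against 10.90 and 10.70 in females 1 and 3. The male lay below both females there, with a log2 difference of -0.45 (standard error 0.24 and 95% interval -0.997 to 0.09 from limma, adjusted p = 0.598). On the dimmer one the male was the highest instead, with 10.57, against 10.08 and 10.43 in females 1 and 3. The difference on this probe set was 0.31 (limma standard error 0.25, 95% interval -0.27 to 0.89, adjusted p = 0.748). Averaged over both probe sets, ATP2A2 read 10.46 in the male and 10.49 and 10.57 in the females, a difference of -0.07, and the SD over the birds was 0.056, where the single probe sets had SDs of 0.28 and 0.25.

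ATP2A3, which encodes SERCA3, a pump known mainly from blood, endothelial and epithelial cells, differed little between the birds. On its brightest probe set it read 9.32 in the male and 9.35 and 9.34 in females 1 and 3, an SD of 0.019. The highest signal was 1.03 times the lowest, the smallest such ratio among the 15 probe sets, and 0.676% of all probe sets on the array had a smaller SD. The next brightest probe set read 8.13 in the male against 8.29 and 8.13 in the females. The dimmest read 7.91 in the male against 7.84 and 7.76 in the females. It is of a type that can bind several transcripts. Its mean of 7.84 lay under 7.88, the lower quartile of the probe set means. The male minus female differences on the 3 probe sets were -0.03, -0.08 and 0.11, and their limma 95% intervals all lay between -0.62 and 0.64.

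PLN, which encodes phospholamban, the small membrane protein that lowers the calcium affinity of SERCA2 until it is phosphorylated, was read by a single probe set. It gave 7.11 in the male, between 7.03 and 7.14 in females 1 and 3 (mean 7.09 ± 0.054, SD, n = 3). Its signal was dim, with a lower mean in 4.41% of the probe sets on the array, and whether it stood above background cannot be told without detection values. The difference between the male and the females was 0.03 (limma standard error 0.23, adjusted p = 0.978).

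Of the release channels, RYR2, the ryanodine receptor of the heart in mammals, was higher in the male on both of its probe sets. On the brighter one the male read 8.94, and females 1 and 3 read 8.55 and 8.62. On the dimmer one the male read 8.41, and the females read 7.62 and 7.96. On both probe sets the male thus lay above both females, as it did on 41.4% of all probe sets on the array. The differences were 0.35 (limma standard error 0.23, 95% interval -0.18 to 0.87, adjusted p = 0.687) and 0.62 (standard error 0.25, 95% interval 0.05 to 1.19, unadjusted p = 0.0374 from limma, adjusted p = 0.469). The second had the largest spread of the 15 probe sets, with an SD of 0.40 and a highest signal 1.73 times the lowest, while 89.7% of all probe sets had a smaller SD. Both probe sets are of a type that can bind several transcripts, marked by _s_at in the name. They share the gene and are not independent of each other. Averaged over them, RYR2 read 8.67 in the male and 8.09 and 8.29 in the females. This difference of 0.48 was the largest in size among the averages of the 7 genes.

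RYR3, the receptor that birds carry in skeletal muscle beside the one matching RYR1, was not separated in 1 direction by its 2 probe sets. The brighter read 7.75 in the male, against 7.47 and 7.73 in females 1 and 3. The dimmer read 7.52 in the male, between 7.70 and 7.45 in the females. Here bird 1 was the lowest on one probe set and the highest on the other, and the male minus female differences were 0.15 and -0.05 (limma adjusted p of 0.870 and 0.959). Both means, 7.65 and 7.55, lay under 7.88, the lower quartile of the probe set means, so that these readings rest on dim signals.

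CASQ2, which encodes the calsequestrin of cardiac and slow fibres in mammals, also had 2 probe sets that disagreed. The brighter, of the type that can bind several transcripts, read 11.08 in the male, against 11.50 and 11.10 in females 1 and 3, and bird 1 stood above the others. The dimmer read 10.96 in the male, against 10.77 and 10.25 in the females, and bird 3 stood below the others. The differences were -0.23 (limma standard error 0.26, 95% interval -0.82 to 0.37, adjusted p = 0.819) and 0.45 (standard error 0.28, 95% interval -0.19 to 1.08, adjusted p = 0.663). What both had in common was a higher signal in female 1 than in female 3, by 0.40 and 0.52, the 2 largest differences between the females among the 15 probe sets. Averaged over its probe sets CASQ2 read 11.02 in the male and 11.14 and 10.67 in the females, which turned the difference to 0.11.

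STIM1, the sensor that opens store-operated calcium entry when the reticulum is empty, was read by 3 probe sets. The brightest read 9.91 in the male, between 9.59 and 9.95 in females 1 and 3, with bird 1 apart from the others. The next brightest read 8.74 in the male, against 8.80 and 8.98 in the females. The dimmest read 8.07 in the male, against 8.06 and 7.86 in the females. Both of these dimmer probe sets are of the type that can bind several transcripts. The differences of 0.14, -0.15 and 0.11 had standard errors of 0.25, 0.24 and 0.24 (limma adjusted p of 0.886, 0.865 and 0.903), and the average over the 3 probe sets left a difference of 0.03.

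**Figure D1:**
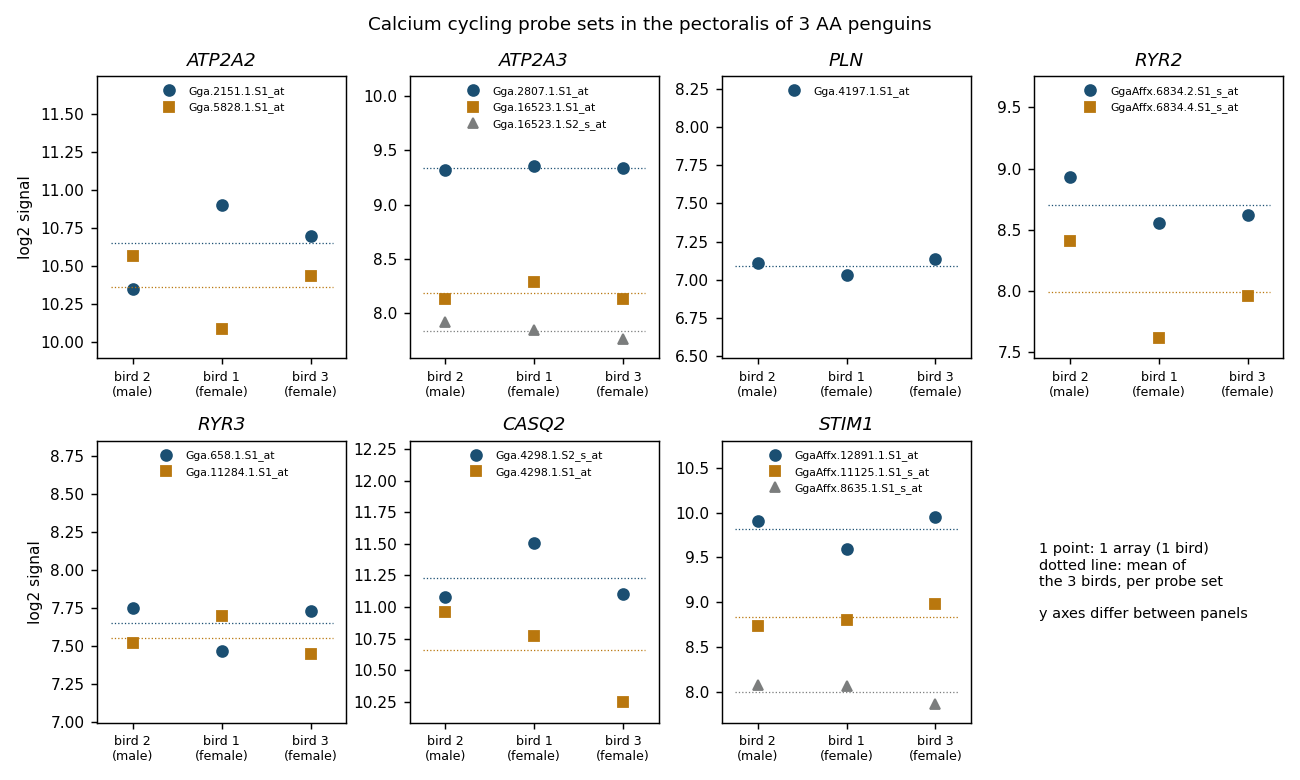
Log2 signal of the 15 calcium cycling probe sets (y axis, a scale of its own in each panel) in the 3 AA birds (x axis: male bird 2, then females 1 and 3), with 1 point per array, 1 marker per probe set named by its identifier and a dotted line at the mean of the birds. The male is the highest on both RYR2 probe sets, while the ATP2A2, ATP2A3, CASQ2, RYR3 and STIM1 probe sets order the birds differently within a gene.

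Over all 15 probe sets, the male was above both females in 7 and below both in 5, and lay between them in the remaining 3. Over all 36813 probe sets the male was above both females in 41.4% and below both in 31.1%. At an adjusted p under 0.05 from limma, 0 of the 15 probe sets and 0% of all probe sets passed, and the lowest adjusted p on the array was 0.0649. At an unadjusted p under 0.05 from limma, 1 of the 15 passed, the dimmer RYR2 probe set, beside 9.78% of all probe sets. The 95% intervals of the 15 differences reached between 0.52 and 0.64 to each side, and each takes the single male to vary like the females, so that differences smaller than this could not be told from 0 with 3 arrays. The male lay farther from the mean of the females than they lay from each other in 5 of the 15 probe sets, and in 52.4% of all probe sets. The median difference between the male and the females was 0.11 over the 15 probe sets and 0.05 over the array.

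**Figure D2:**
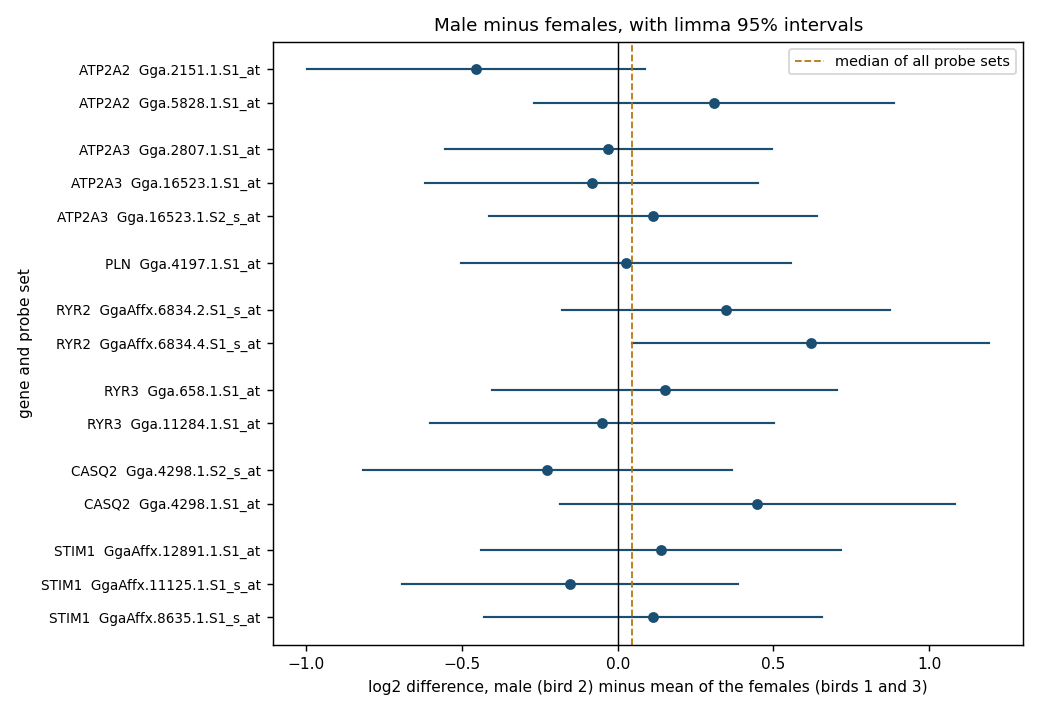
Log2 difference between the male and the mean of the females (x axis) for each calcium cycling probe set (y axis), as points with limma 95% intervals, with the median of all probe sets, 0.05, as a dashed line. With 1 male array, the width of each interval comes from the gap between the females and from limma's shared variance. The differences lie between -0.45 for ATP2A2 and 0.62 for RYR2, and 0 of the 15 passed at an adjusted p under 0.05.

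The spread between birds differed from gene to gene. The SDs of the 15 probe sets ran from 0.019 for ATP2A3 to 0.40 for RYR2 with a median of 0.16, beside a median of 0.19 over all probe sets, of which 95% had an SD up to 0.51. With each gene on its brightest probe set, the median SD was 0.19 over the 7 genes and 0.20 over all genes. The range over the birds was above 0.5 log2 units in 3 of the 15, which were 1 probe set each of ATP2A2, RYR2 and CASQ2, and in 29.3% of all probe sets. The 3 ATP2A3 probe sets and PLN had the 4 smallest SDs, all under 0.1. The median SD over the 15 probe sets was 0.0945 without bird 1, as an SD over 2 birds. It was 0.20 over the 11 left without the dimmest 25% of probe sets on the array. For the whole array no such value was computed, so neither is to be set beside 0.19. The median size of the difference between the male and female 1 was 0.19 over the 15 probe sets and 0.22 over all probe sets. For the male and female 3 it was 0.13 over the 15 and 0.25 over all, and for the females 0.20 over the 15 and 0.20 over all. Bird 1 was the highest in 5 and the lowest in 6 of the 15 probe sets, bird 2 the highest in 7 and the lowest in 5, and bird 3 the highest in 3 and the lowest in 4. Over all probe sets bird 2 was above both others in 41.4% and below both in 31.1%. For birds 1 and 3 no such shares were computed, so their counts cannot be called particular to these genes.

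**Figure D3:**
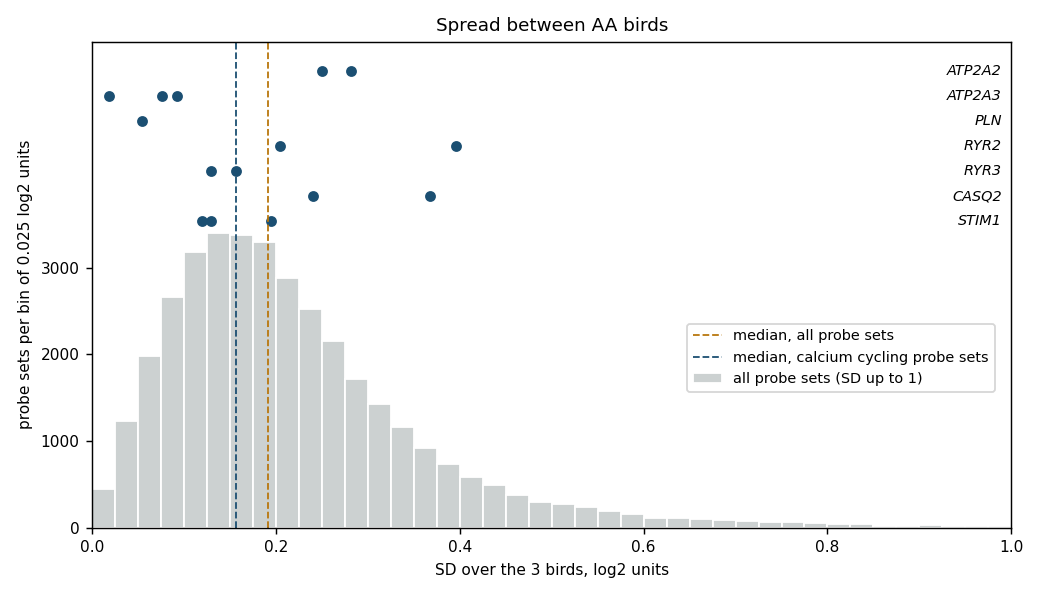
SD over the 3 birds in log2 units (x axis), as points for the 15 calcium cycling probe sets in a row for each gene, above a histogram of all probe sets with an SD up to 1 (y axis: probe sets per bin). The dashed lines mark the medians, 0.16 for the calcium cycling probe sets and 0.19 for all; ATP2A3 and PLN lie at the low end and 1 probe set each of RYR2 and CASQ2 at the high end.

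Since probe sets of 1 gene differed in direction, their agreement was counted. Of the 6 genes with several probe sets, the 2 brightest probe sets gave the difference between the male and the females the same sign in 2, ATP2A3 and RYR2, and opposite signs in ATP2A2, RYR3, CASQ2 and STIM1. Over all 7076 genes of the array with several probe sets the signs were the same in 53.9%, and in 63.6% of the 1045 genes where both differences were at least 0.3 in size. ATP2A2 was the one listed gene with differences of at least 0.3 in size on both of its probe sets and opposite signs, and RYR2 the one with such differences and the same sign. Sex chromosomes bear on a comparison of a male with females, and by symbol 6 of the 7 genes were found among the RefSeq genes of bAptPat1.pri.cur, an assembly of this species, of which 0 lay on chromosome Z or W.

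The rest of the calcium handling machinery was taken from lists of 61 other genes, of which 48 had a probe set, and each gene was read from its brightest probe set. Of the 48, the male was above both females in 22 and below both in 13, beside 41.5% and 32.5% of all 12913 genes on the array. At an adjusted p under 0.05 from limma 0 of the 48 passed, and 6 did at an unadjusted p under 0.05, beside 12.5% of all genes. The median difference was 0.03 over the 48 genes and 0.04 over all genes, and the median SDs were 0.16 and 0.20.

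At the junction where the surface membrane meets the reticulum, 11 genes were measured, with a median difference of -0.15. Of these, 5 were above both females in the male and 6 below both, beside 41.5% and 32.5% of all genes. JPH1, which encodes junctophilin 1, the protein that ties both membranes together, read 10.44 in the male and 11.55 and 11.70 in females 1 and 3, a difference of -1.19 (limma standard error 0.23, adjusted p = 0.198). Its other probe sets gave differences of -0.25 and 0.12. HOMER1, a scaffold protein that binds ryanodine receptors, read 8.03 in the male and 8.87 and 8.88 in the females, a difference of -0.84 (limma adjusted p = 0.278). On another HOMER1 probe set the male read 6.88 and the females 8.98 and 9.06, a difference of -2.14 (standard error 0.23, adjusted p = 0.0704), while on the remaining one the male read 7.98 and the females 7.92 and 7.88. Large differences on the brightest probe set of JPH1 and on all but the dimmest of HOMER1 thus stood beside smaller ones on the rest.

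In the lumen and membrane of the reticulum, the median difference was 0.05. Of 10 measured genes, 4 were above both females in the male and 1 below both, beside 41.5% and 32.5% of all genes. That 1 was ITPR3, a receptor for inositol trisphosphate that also releases calcium, with 7.90 in the male and 8.97 and 8.14 in females 1 and 3 (a difference of -0.65, limma adjusted p = 0.597). ITPR1, a receptor of the same family, read 8.57 in the male, between 8.25 and 9.00 in the females, on its brightest probe set. On the next brightest the male again lay between them, with 8.44 against 8.64 and 8.20. On the remaining ones the male lay below both, with 7.82 against 8.21 and 8.08, and 7.18 against 7.29 and 7.48. Neither gene passed at an adjusted p under 0.05.

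Store-operated entry, through which STIM1 refills the store, had 5 measured genes, with a median difference of 0.20. Of the 5, 3 were above both females in the male and 0 below both, beside 41.5% and 32.5% of all genes. ORAI1, the channel that STIM1 opens, had the largest difference of the list, with 9.23 in the male and 8.26 and 8.45 in the females. Its difference was 0.88 (limma standard error 0.24), on a single probe set of the type that can bind several transcripts. ORAI3, another channel of the family, read 9.04 in the male, between 8.79 and 9.20 in the females. On its other probe set the male lay above both, with 7.83 against 7.63 and 7.79.

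Calcium transport across the plasma membrane and into mitochondria had 9 measured genes, with a median difference of 0.09. Of the 9, 6 were above both females in the male and 1 below both, beside 41.5% and 32.5% of all genes. ATP2B2, a calcium pump of the plasma membrane, read 10.71 in the male and 11.94 and 10.49 in females 1 and 3. On this probe set bird 1 stood apart and the females lay 1.45 from each other. On the other one ATP2B2 read 8.47 in the male and 8.60 and 8.54 in females 1 and 3, and bird 1 did not stand apart. LETM1, a mitochondrial inner membrane protein involved in cation exchange, read 11.32 in the male, below 11.77 and 11.80 in the females, a difference of -0.46 (limma adjusted p = 0.571).

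Among the cytosolic calcium-binding proteins and kinases, 13 genes were measured, with a median difference of -0.02. Of the 13, 4 were above both females in the male and 5 below both, beside 41.5% and 32.5% of all genes. PPP3R1, the regulatory subunit of the calcium-dependent phosphatase calcineurin, read 10.60 in the male and 12.09 and 11.93 in females 1 and 3, a difference of -1.41 (limma standard error 0.23, adjusted p = 0.186). This was the largest difference among the 48 genes on their brightest probe sets. On the other PPP3R1 probe set, however, it was 0.09, with 9.23 in the male and 9.21 and 9.06 in the females. Both are of the type that can bind several transcripts, as are the brightest probe sets of HOMER1, ITPR3, ORAI3 and LETM1. S100A1, a calcium-binding protein known to act on the ryanodine receptor and SERCA2, read 11.10 in the male and 10.28 and 11.29 in the females, where bird 1 was the lowest.

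**Figure D4:**
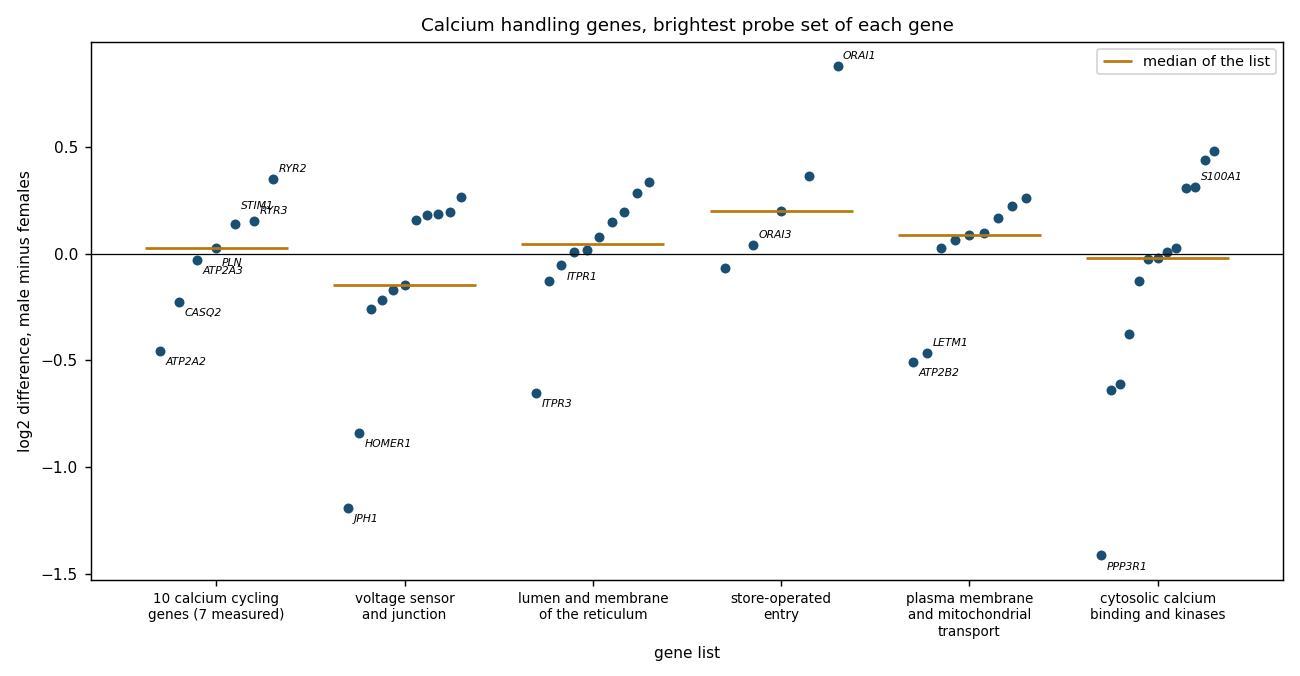
Log2 difference between the male and the females (y axis) for the 7 measured calcium cycling genes and 5 lists of other calcium handling genes (x axis), with 1 point per gene on its brightest probe set, a bar at the median of each list, and names for the 7 genes and the 2 genes of each other list with the largest range over the birds. On these probe sets the 7 genes lie between -0.45 and 0.35, while the other RYR2 probe set, not drawn, had a difference of 0.62. JPH1 at -1.19, PPP3R1 at -1.41 and ORAI1 at 0.88 are among the other genes outside that span.

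Markers were read in the same way to see what else differed between the biopsies. ACTA1, the skeletal actin gene, read 15.27 in each bird, which is the top value that normalization gave to every array and so compares nothing between birds. The mean signal over the 5 measured skeletal muscle markers, ACTA1 among them, was 13.17 in the male and 13.26 and 13.23 in females 1 and 3. TTN, which encodes titin, had a male minus female difference of -0.03 on its brightest probe set. On its other probe sets the differences ran from -1.14 to 0.22. NEB, the giant thin filament protein nebulin, had a male minus female difference of -0.85 on its brightest probe set. The difference for DES, the intermediate filament protein desmin, was 0.64 on its brighter probe set. On the other DES probe set it was -0.32, with females 1 and 3 at 10.63 and 12.06. The other probe sets of NEB, from the next brightest to the dimmest, gave differences of -1.29, -0.63, -1.15, 0.47, 0.24, -0.22 and -1.22. For 8 fast fibre markers the mean signal was 12.56 in the male and 12.31 and 12.56 in the females. Of the 8, 3 were above and 1 was below both females in the male, beside 41.5% and 32.5% of all genes. The largest range was that of MYLPF, a fast myosin light chain, at 13.35 in the male and 12.34 and 12.83 in the females. MYBPC2, with the next largest range, read 9.60 in the male, between 9.56 and 10.29 in females 1 and 3. The median difference over the 8 genes was 0.07. For 10 slow fibre markers the mean signal was 10.46 in the male and 10.56 and 10.66 in the females. Of the 10, 2 were above and 4 below both females in the male, beside the same shares of all genes, and the median difference was 0.03. Of these, MYL3, a slow myosin light chain, read 10.56 in the male against 11.44 and 11.47 in the females, and MYOZ2, a protein of the slow fibre Z disc, read 11.09 in the male against 12.01 and 12.10, differences of -0.90 and -0.97 (limma adjusted p of 0.251 and 0.236). In the other direction, MYL2, another slow myosin light chain, and TNNC1, slow troponin C, were above both females in the male, with differences of 0.33 and 0.12 from their mean. The part of fibre type in the readings of ATP2A2, CASQ2 and PLN was not tested.

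Of the other cell types in the tissue, erythrocyte markers averaged 11.39 in the male and 11.81 and 11.54 in females 1 and 3 over 7 genes, leukocyte and thrombocyte markers 10.14 in the male and 9.68 and 9.92 over 7, and endothelial markers 9.54 in the male and 9.63 and 9.46 over 7. Smooth muscle markers averaged 10.11 in the male and 9.93 and 10.01 in the females over 4 genes, fibroblast and matrix markers 9.66 in the male and 10.03 and 9.55 over 7, and nerve and satellite cell markers 9.30 in the male and 9.34 and 9.37 over 5. The male was above both females for 6 of the 7 leukocyte and thrombocyte markers and for 3 of the 4 smooth muscle markers. Over all genes on the array this share was 41.5%. TAGLN, the remaining smooth muscle marker, was below both females, with a difference of -0.64. For erythrocyte markers the male was below both females in 4 of 7, beside 32.5% of all genes. In these lists 0 genes passed at an adjusted p under 0.05 from limma, and their part in the readings of RYR2, ATP2A3 or STIM1 was not tested.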

How the data were processed

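Total RNA of 1 pectoralis biopsy per bird was labelled with biotin and hybridized to Affymetrix Chicken Genome arrays. The authors reduced each probe set to 1 signal with MaxRS, which was developed for arrays of another species, and deposited its log2 after quantile normalization. The number of arrays normalized together is not stated in what was read here. The tool limma is named in the submitters' processing notes.

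No further scaling was applied to the deposited log2 values. The platform's annotation gave 1 gene symbol to 26041 probe sets, several to 170 and none to 10602. Where a gene had several probe sets, the one with the highest mean over the birds stood for it in counts over genes. The male was compared with the females by limma 3.58.1 (lmFit and eBayes, R 4.3.3) on all 36813 probe sets, with Benjamini-Hochberg adjustment over all of them. This leaves 1 residual degree of freedom, takes the lone male to vary like the females, and borrows spread from a prior of 7.35 degrees of freedom. The step was tested on simulated data in which all 3 arrays varied alike. It could therefore not test whether the lone male varies like the females. Means, SDs and ranges were computed in Python 3.11.15. The 7 genes are given with every probe set, and of each other calcium list the 2 genes with the largest range over the birds are named. Fibre, muscle, blood, vessel, matrix and nerve markers were also listed. The genes, lists and tests were chosen with earlier results of these data known.

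The alternatives were median centring, quantile normalization run again, removal of the dimmest 25% of probe sets, removal of _s_at and _x_at probe sets, an intensity trend in limma, the mean of all probe sets of a gene, and leaving out each bird. The precision is limited by the 3 arrays, and no depth applies.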

Additional observations from a re-analysis of the deposited data

How the results depend on the processing

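The count of calcium cycling probe sets that passed limma's adjusted threshold was 0 under the 5 alternatives that were refitted, which were median centring, quantile normalization run again, the intensity trend, and those without the dimmest 25% or without _s_at and _x_at probe sets. At an unadjusted p under 0.05 it was 1, and 0 without _s_at and _x_at probe sets. Over all probe sets 0 passed limma's adjusted threshold in the main setting. The count passing that adjusted threshold was 7 without _s_at and _x_at probe sets and 2 with an intensity trend in limma. The difference between the male and the females turned from -0.23 to 0.45 for CASQ2 without _s_at and _x_at probe sets, since this leaves only its other probe set, and was 0.11 with the mean of both. With each female left out in turn it ran from -0.0248 to 0.0795 for PLN and from -0.0374 to 0.317 for STIM1, the lowest without bird 1. It also ran from -0.428 without bird 3 to -0.0251 without bird 1 for CASQ2, and from 0.0209 without bird 1 to 0.281 without bird 3 for RYR3. Of 53 values of the difference under the alternatives, 4 changed sign, those of CASQ2 on other probe sets and those of PLN and STIM1 without bird 1. With 1 bird left out, the median SD of the 15 probe sets ran from 0.0945 without bird 1 to 0.145 without bird 2. With all birds it was 0.156. The former are SDs over 2 birds and the latter over 3, so they are not like for like. The drop is therefore not to be read as due to the bird removed. The median SD was 0.204 over all birds without the dimmest 25% of probe sets. Without the dimmest 25% of probe sets, PLN and RYR3 had no value, and without _s_at and _x_at probe sets RYR2 had none. No technical repeat of an array was used here, so the error of a single array could not be separated from the difference between birds.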

Other observations

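Among the other calcium genes, PPP3CA, the catalytic subunit of calcineurin, was chosen after its values were seen because its probe sets gave the same direction. On its brightest probe set it read 10.08 in the male and 10.61 and 10.76 in females 1 and 3, a difference of -0.61 (limma adjusted p = 0.443). On the other 4 probe sets of PPP3CA, which share the gene and are not independent of each other, the differences between the male and the females were -0.64, -0.71, -0.68 and -1.08, with adjusted p of 0.431, 0.368, 0.387 and 0.218 from limma. Taken singly, 31.1% of all probe sets on the array had the male below both females. That share is not a like measure for 5 probe sets of 1 gene. For PPP3CA the male lay below both females on all 5. That agreement was the ground for naming PPP3CA, so it is no result. Of the genes described above, JPH1, HOMER1 and PPP3R1 each had a probe set on which the male did not lie below the females. For LETM1, also described above, the male lay below the females on both probe sets, with differences of -0.46 and -0.26.

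CACNA1S, the voltage sensor that triggers calcium release in skeletal muscle and was likewise chosen after its values were seen, read 10.84 in the male and 10.47 and 10.83 in females 1 and 3 on its brightest probe set. The differences on its 4 probe sets were 0.19, 0.23, 0.12 and 0.01, all above 0. On the last of these the male lay between the females, with 8.72 against 8.65 and 8.78. Since CACNA1S was chosen with these values known, their shared direction is no result. For CACNA2D1, another gene of the junction list, the differences were -0.26, -0.07, -0.12 and -0.02. SLN, which encodes sarcolipin, a small protein that uncouples calcium transport from ATP use by the SERCA pump, read 9.89 in the male and 9.64 and 9.57 in the females on its one probe set, a difference of 0.28 (limma adjusted p = 0.747).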
